A study of Mus musculus with 14 samples.

Results

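Mitosis genes were followed through adipogenesis in culture and in brown fat. The group is a list of 32 mouse genes that build, drive or police cell division, named by symbol. It was chosen with earlier results of these data known. All 32 were present among 22836 gene symbols, and each reached 1 RPKM (reads scaled to transcript length and to library depth) in at least 1 of 14 libraries. The libraries came from 2 preadipocyte lines and from brown adipose tissue, with 1 library in each of 14 groups, so no group has a replicate. The brown line was made from preadipocytes of the interscapular brown fat of newborn pups with floxed Pparg alleles and immortalized with SV40 T antigen, and no Cre recombinase is named. 3T3-L1 is an immortalized white preadipocyte line. Each line gave a confluent sample before induction (0h) and samples taken 1h, 2h and 4h and 2 and 7 days later. The induction mix held insulin (0.02 µM), the thyroid hormone T3 (1 nM), the phosphodiesterase inhibitor IBMX (0.5 mM), the glucocorticoid dexamethasone (1 µM) and indomethacin (0.125 mM), added 4 days after plating. The tissue libraries were of adult and of embryonic brown fat, with no age or number of animals in the labels. All samples are labelled C57BL/6J, 3T3-L1 included, and the text on growth and induction is the same for every sample and describes only the origin of the brown line. T antigen, depot of origin, developmental stage and clone history differ together between the lines and cannot be told apart.

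Cells enter mitosis when cyclin A and cyclin B activate the kinase Cdk1. Condensed chromosomes are then captured by the spindle at their kinetochores, a checkpoint holds the cell until all are attached, and the anaphase-promoting complex (APC/C) releases the sister chromatids before cytokinesis divides the cell. The genes for these steps are transcribed in late S, G2 and M phase and are repressed in resting cells by the DREAM complex, which contains the RB relatives p107 or p130 and binds promoters at a short element called CHR, often near CCAAT boxes bound by NF-Y. SV40 T antigen is known to bind RB family proteins and p53. Confluent 3T3-L1 cells are known to re-enter the cell cycle after hormonal induction, a phase called mitotic clonal expansion, before they differentiate. Mature adipocytes rarely divide.

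The promoters show what most of these genes share in sequence. RefSeq promoter sequences on GRCm38.p6 were at hand for 27 members, each running from 250 bases before the start to 50 after it. TTTGAA, the letters of the CHR, was found on either strand in 21 of 27 (77.8%) and in 20.2% of 27025 genes in the same table. CCAAT, on either strand, was found in 22 of 27 (81.5%) and in 41.1% of genes, and both motifs in 18 of 27 (66.7%) and in 7.97% of genes. In the 250 bases before the start alone, TTTGAA was in 37.0% of the 27 and in 18.3% of genes. These matches are a description of letters and not of binding. The 100 bases before the start are shown for Cdk1, Cdc20, Espl1 and Top2a, whose CHR and CCAAT letters stand close together, and for Anln. Capitals mark TTTGAA and CCAAT, or TTCAAA and ATTGG where they lie on the other strand.
Cdk1 (chr10:69352913-69353012, strand -): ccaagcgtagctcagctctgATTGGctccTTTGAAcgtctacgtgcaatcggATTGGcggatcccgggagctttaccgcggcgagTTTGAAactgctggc
Cdc20 (chr4:118437344-118437443, strand -): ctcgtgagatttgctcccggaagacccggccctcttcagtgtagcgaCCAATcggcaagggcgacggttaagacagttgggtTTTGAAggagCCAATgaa
Espl1 (chr15:102296193-102296292, strand +): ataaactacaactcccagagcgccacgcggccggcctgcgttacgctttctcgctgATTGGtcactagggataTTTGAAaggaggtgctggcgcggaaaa
Top2a (chr11:99024190-99024289, strand -): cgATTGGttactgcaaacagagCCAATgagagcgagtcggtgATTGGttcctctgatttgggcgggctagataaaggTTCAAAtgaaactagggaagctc
Anln (chr9:22389207-22389306, strand -): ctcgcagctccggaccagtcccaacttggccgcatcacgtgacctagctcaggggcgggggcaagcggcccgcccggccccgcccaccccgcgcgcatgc
In these stretches Cdk1 held TTTGAA in 2 places, and Anln held neither motif, although its 300-base window held TTTGAA. Birc5 and Nuf2 held neither motif in the whole window. At day 7 in 3T3-L1 they stood at 0.0722 and 0.0406 of their 0h level, Cdk1 at 0.284 and Anln at 0.511. Whether the motifs go with the courses was not tested.

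The depths worked out from the RPKM values were 39.5 to 80.9 M (mega) reads for the culture libraries. Those implied for the tissues were 5.35 M reads for the adult and 18.8 M for the embryo. The deposited tissue counts added up to 4.02 M and 17.5 M reads. Of 8 adipocyte markers all were at 1 RPKM or more at day 7 in both lines, with summed levels of 5066 RPKM in the brown line and 14967 RPKM in 3T3-L1. Cebpa alone of these was higher in the brown line, at 250 RPKM against 147 RPKM. The 6 brown adipocyte markers summed to 16.8 RPKM in the brown line and 38.6 RPKM in 3T3-L1 at day 7. Of them 5 were higher in the brown line, among them Dio2 at only 0.03 and 0.01 RPKM. Cidea stood at 6.65 RPKM in the brown line and 2.98 RPKM in 3T3-L1, and Ucp1 at 1.07 RPKM in the brown line and listed at 0 in 3T3-L1. The exception was Cox8b, at 2.63 RPKM in the brown line and 32.5 RPKM in 3T3-L1. The files of both lines use another header style from day 2 on, and whether a batch goes with it is not stated. Per the labels, the last 2 brown libraries also belong to another series.

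**Figure D1:**
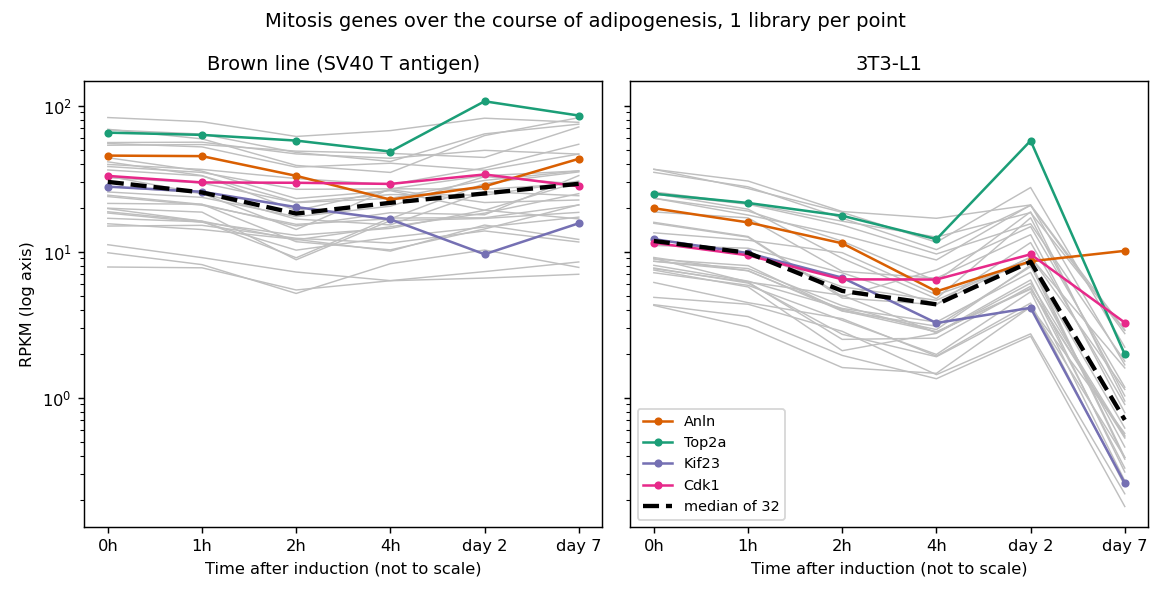
RPKM (log axis) of the 32 mitosis genes at the 6 times, in the brown line (left) and 3T3-L1 (right), 1 library per point; grey lines are single genes, colours mark 4 genes and the dashed line is the median. The median stood between 18.2 and 30.1 RPKM in the brown line, while in 3T3-L1 it was 4.36 RPKM at 4h, 8.54 at day 2 and 0.705 at day 7.

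The brown line carried more mitotic mRNA than 3T3-L1 for almost the whole list. In a limma fit on log2(RPKM + 1) over the 12 culture libraries, with terms for time and line, 31 of 32 members were higher in the brown line and 0 lower at a Benjamini-Hochberg adjusted p under 0.05, against 31.3% of 12428 genes higher and 18.6% lower. The median difference, brown minus 3T3-L1, was 1.87 on that log2 scale, against 0.08 over all genes tested. Rescaling the libraries by the median of ratios gave 1.78 and -0.02; of the calls over all genes 62.7% were higher in the brown line before it and 50.5% after it. Differences ran from 1.07 for the checkpoint kinase gene Bub1b, the member that missed the threshold (SE 0.44, limma adjusted p = 0.0785), to 2.47 for the proliferation marker Mki67. The brown library was above the 3T3-L1 library at all 6 times for 32 of 32 members, against 29.5% of genes. For 28 of 32 members every brown library was above every 3T3-L1 library, against 10.8% of genes, the exceptions being Top2a, Aurka, Bub1b and Kif23. In bulk RNA, fewer dividing cells and less mitotic mRNA per dividing cell cannot be told apart. The 6 times stand as matched pairs of the lines here, so the p-values measure how far the difference between the lines varies over the times. With the 0h to 4h libraries alone, 32 of 32 members were higher (39.3% of genes); with day 2 and day 7 alone, where 4 libraries leave 1 residual degree of freedom, 0 members and 0 genes passed, while the median difference over the members was 2.47 on the log2 scale.

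The size of the gap depended on the time. At 0h the median member stood 2.38 times as high in the brown line as in 3T3-L1, and the median ratio was 2.71 at 1h, 3.22 at 2h, 5.05 at 4h, 2.67 at day 2 and 36.6 at day 7. Over all genes the median ratio lay between 1.01 and 1.15 at these times. At 2-fold or more, with the higher value at least 2 RPKM and no test, 25 of 32 members were higher in the brown line at 0h (10.5% of genes), 28 at 1h (11.9%), 30 at 2h (13.5%), 32 at 4h (14.5%), 26 at day 2 (14.4%) and 32 at day 7 (18%). At none of the 6 times was a member 2-fold lower in the brown line, against 9.54%, 9.63%, 8.98%, 7.58%, 9.6% and 10.3% of genes from 0h to day 7. The members under 2-fold at 0h were Bub1, Bub1b, Cdc25c, Cenpe, Kif20a, Racgap1 and Tpx2, and at day 2 they were Aurka, Bub1b, Cdc20, Kif20a, Plk1 and Top2a.

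**Figure D2:**
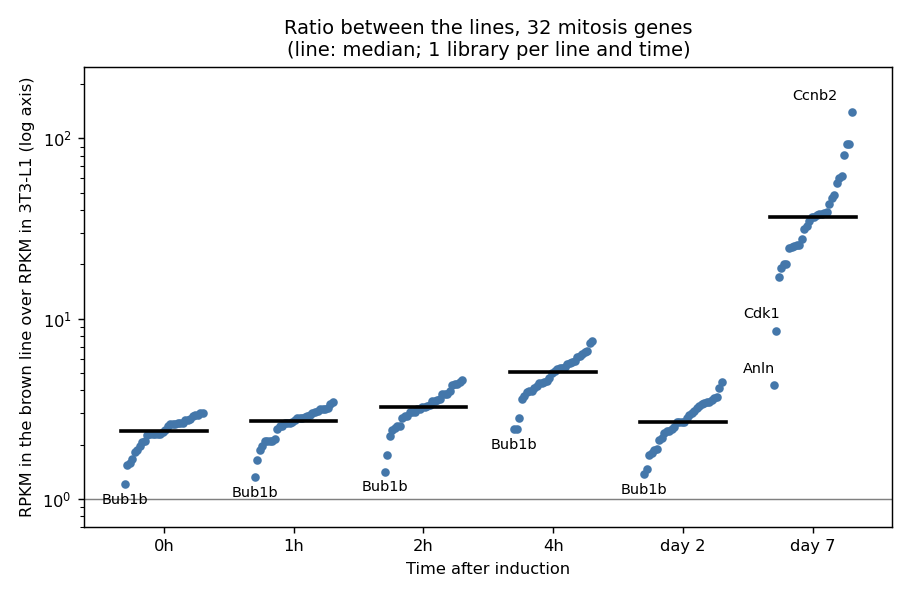
RPKM in the brown line over RPKM in 3T3-L1 (log axis) for each of the 32 genes at the 6 times, with the median as a bar; 1 library per line and time, and selected genes are named. The median was 2.38 at 0h, 5.05 at 4h, 2.67 at day 2 and 36.6 at day 7, when Anln (4.27) and Cdk1 (8.58) had the lowest ratios.

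By the limma fit of the line difference the cyclins, Cdk1 and its activator were all higher in the brown line (5 of 5, against 31.3% of genes). Cdk1, the kinase that drives entry into mitosis, stood at 33.1, 29.8, 29.7, 29.1, 33.8 and 28.1 RPKM in the brown line from 0h to day 7, and at 11.5, 9.45, 6.47, 6.45, 9.60 and 3.27 RPKM in 3T3-L1. Its brown libraries spanned 1.20-fold and lay well above all 3T3-L1 libraries, and the line difference was 1.92 ± 0.17 (log2 ± SE, limma adjusted p = 0.000161). Ccnb2, a B-type cyclin, stood at 39.6, 36.6, 31.7, 28.8, 37.5 and 54.4 RPKM in the brown line and at 13.5, 11.99, 9.85, 5.07, 8.47 and 0.390 RPKM in 3T3-L1. Its highest brown library and its lowest 3T3-L1 library were those of day 7, where the ratio reached 139.6. Ccna2, the cyclin of S phase and early mitosis, had the highest level of the list at 0h in both lines, with 83.0 RPKM in the brown line and 36.7 RPKM in 3T3-L1. Ccnb1 lay between 12.9 and 19.2 RPKM in the brown line and between 0.460 and 8.07 RPKM in 3T3-L1. Cdc25c, the phosphatase that activates Cdk1, was among the lowest members, at 5.47 to 7.86 RPKM in the brown line and 0.180 to 4.34 RPKM in 3T3-L1.

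Among the mitotic kinases and checkpoint genes 5 of 6 passed in limma as higher in the brown line, against 31.3% of genes. Bub1b did not pass, although its brown library was the higher one at all 6 times. Plk1, a kinase of spindle and centrosome maturation, stood at 41.3, 33.2, 19.1, 26.6, 21.7 and 22.6 RPKM in the brown line and at 15.7, 12.6, 4.82, 4.34, 11.6 and 0.900 RPKM in 3T3-L1 from 0h to day 7. Aurka, the centrosomal Aurora kinase, stood at 32.9, 25, 14.2, 27.0, 26.8 and 29.3 RPKM in the brown line and at 15.9, 12.7, 4.94, 7.52, 14.9 and 1.18 RPKM in 3T3-L1. Both genes had a dip at 2h in the brown line, and the brown 2h library of Aurka lay below the 0h and day 2 libraries of 3T3-L1. Bub1b, which encodes the checkpoint protein BubR1, stood at 28.0, 25.2, 16.7, 15.3, 25.7 and 24.2 RPKM in the brown line and at 23.2, 19.0, 11.8, 6.29, 18.8 and 0.950 RPKM in 3T3-L1. It had the lowest ratio of the list at every time but day 7, from 1.20 at 0h to 2.43 at 4h. Its line difference was 0.54 without either day 7 library (limma adjusted p = 0.0139 without 3T3-L1 and 0.0141 without brown) and 0.57 with the 0h to 4h libraries alone (limma adjusted p = 0.0137). Nek2, a centrosome kinase, differed by 2.11 ± 0.41, Ttk, the checkpoint kinase also called Mps1, by 1.52 ± 0.22 and Bub1 by 1.498 ± 0.32 (log2 ± SE).

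The chromosomal passenger complex corrects faulty attachments, and its 3 members in the list were all higher in the brown line in limma (31.3% of genes). Aurkb, its kinase, stood at 25.7, 23.6, 17.4, 20.5, 32.7 and 29.1 RPKM in the brown line and at 8.60, 7.43, 3.92, 3.09, 7.90 and 0.620 RPKM in 3T3-L1 from 0h to day 7. The lowest brown library was above the highest 3T3-L1 library, and the difference was 2.24 ± 0.34 (log2 ± SE, limma adjusted p = 0.00152). Birc5, the survivin gene, lay between 43.7 and 56.3 RPKM in the brown line and between 1.68 and 23.3 RPKM in 3T3-L1. Cdca8, the borealin gene, lay between 21.8 and 36.3 RPKM in the brown line and between 1.60 and 12.2 RPKM in 3T3-L1.

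All 5 centromere and kinetochore members were higher in the brown line in limma (31.3% of genes). Cenpa, the histone H3 variant that marks centromeres, stood at 53.6, 54.2, 48.9, 47.2, 44.2 and 71.5 RPKM in the brown line and at 25.7, 21.3, 16.2, 12.6, 18.5 and 2.89 RPKM in 3T3-L1. Cenpf, a large kinetochore protein, stood at 18.8, 16.2, 12.1, 14.8, 18.4 and 24.98 RPKM in the brown line and at 7.18, 5.89, 3.39, 1.98, 5.32 and 0.270 RPKM in 3T3-L1. Both had their highest brown library at day 7, and the lines did not overlap. Ndc80 and Nuf2, partners in the complex that grips microtubules, differed by 1.46 ± 0.26 and 1.85 ± 0.27, and the kinetochore motor Cenpe by 1.61 ± 0.34 (log2 ± SE).

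The spindle, midzone and cytokinesis genes were higher in the brown line in limma as well (9 of 9, against 31.3% of genes). Kif11, the motor that pushes spindle poles apart, stood at 23.9, 20.8, 15.4, 16.8, 29.4 and 35.2 RPKM in the brown line and at 9.13, 7.39, 4.03, 2.93, 8.09 and 0.380 RPKM in 3T3-L1. Kif23, a motor of the central spindle, stood at 27.9, 25.7, 20.2, 16.7, 9.61 and 15.7 RPKM in the brown line and at 12.2, 9.77, 6.64, 3.25, 4.13 and 0.260 RPKM in 3T3-L1. Kif23 was lowest at day 2 in the brown line, below the 0h and 1h libraries of 3T3-L1. Anln, the anillin gene, whose product ties actin and septins to the cleavage furrow, stood at 45.5, 45.1, 33.1, 22.8, 28.0 and 43.3 RPKM in the brown line and at 19.9, 15.9, 11.4, 5.35, 8.60 and 10.1 RPKM in 3T3-L1. Its difference of 1.59 ± 0.12 had the smallest SE of the list (limma adjusted p = 8.27e-05), and it was the member whose 3T3-L1 day 7 library did not lie below day 2. Tpx2, an activator of Aurora A on the spindle, differed by 1.37 ± 0.40 (limma adjusted p = 0.0226), a call that ended without the 4h library of either line and in edgeR on recovered reads. The other members here differed by 1.49 (Kif20a) to 2.04 (Prc1, which bundles midzone microtubules), with Kif2c, Racgap1 and Ect2 between them.

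Of the remaining members, Mki67, which coats mitotic chromosomes, stood at 68.9, 59.3, 39.0, 34.9, 62.4 and 82.7 RPKM in the brown line and at 25.02, 19.6, 9.01, 4.77, 17.1 and 1.03 RPKM in 3T3-L1. Top2a, the topoisomerase that untangles sister chromatids, stood at 65.4, 63.1, 57.7, 48.5, 107.2 and 85.6 RPKM in the brown line and at 24.96, 21.6, 17.6, 12.2, 57.6 and 1.98 RPKM in 3T3-L1. Top2a peaked at day 2 in both lines, and its 3T3-L1 day 2 library lay above its brown 4h library. Cdc20, the activator of the APC/C, stood at 44.0, 35.7, 23.1, 26.2, 19.2 and 30.1 RPKM in the brown line and at 18.7, 17.1, 7.34, 6.59, 13.1 and 0.790 RPKM in 3T3-L1. Espl1, the separase gene, lay between 9.09 and 20.9 RPKM in the brown line and between 0.550 and 7.49 RPKM in 3T3-L1.

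**Figure D3:**
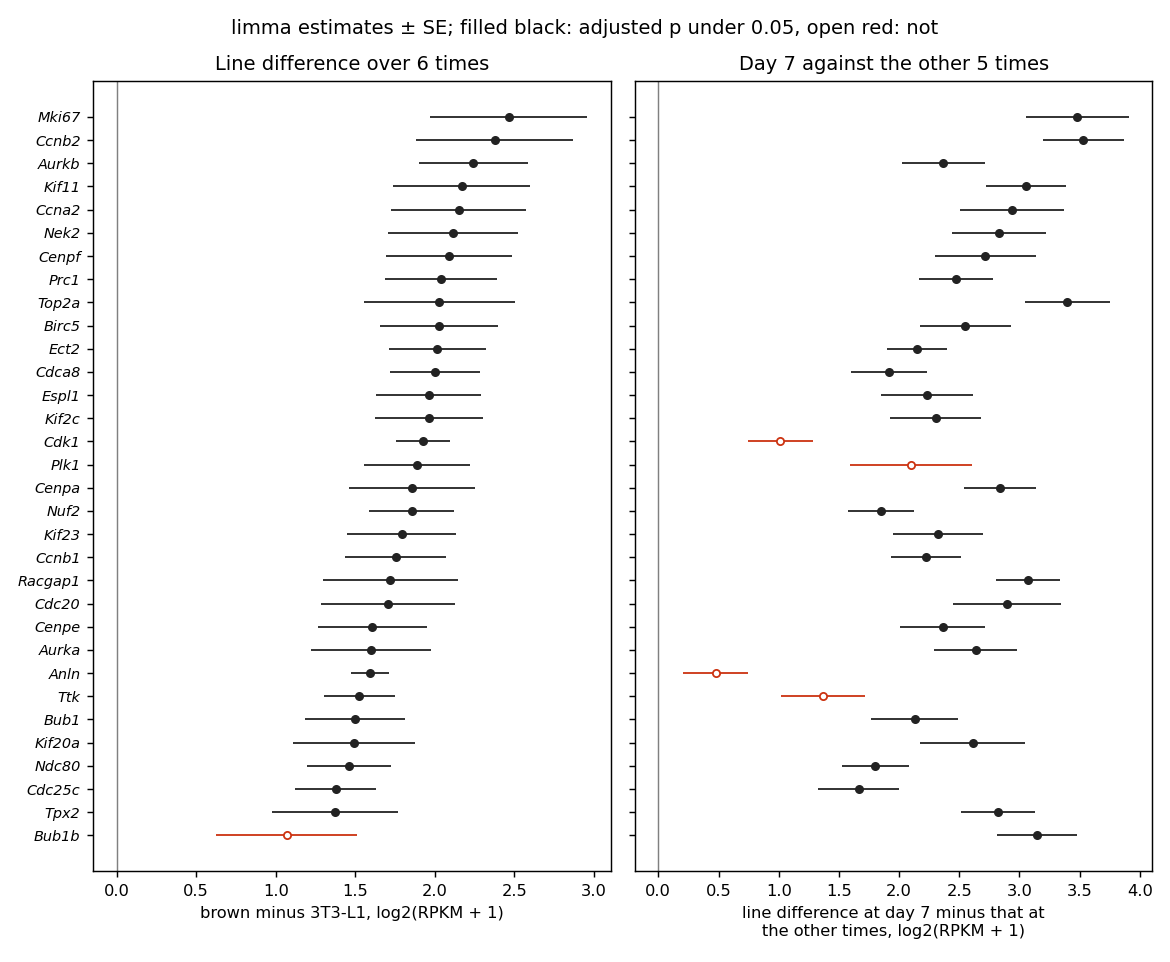
limma estimates ± SE on log2(RPKM + 1) for the 32 genes: left, brown minus 3T3-L1 over 6 times; right, that difference at day 7 minus the same at the other times (a fit chosen after the data were seen). All 32 points lie to the right of 0 in both panels; 31 passed on the left (not Bub1b) and 28 on the right (not Cdk1, Plk1, Ttk and Anln).

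In the hours after induction most members stood below their 0h level in both lines, and at 4h the median member stood further below it in 3T3-L1 than in the brown line. The median ratio to 0h was 0.915, 0.675 and 0.737 at 1h, 2h and 4h in the brown line, and 0.811, 0.501 and 0.331 in 3T3-L1. Over all genes it was 0.962, 0.901 and 0.957 in the brown line and 0.926, 0.830 and 0.835 in 3T3-L1. At 1h 29 members were below 0h in the brown line and 32 in 3T3-L1. The median gene was below its 0h level at 1h in both lines too, and shares of all genes were not worked out there. All 32 members were below their 0h level in both lines at 2h (63.8% of genes) and at 4h (49.6% of genes). By the 2-fold rule 4 members were lower at 2h than at 0h in the brown line (Aurka, Espl1, Kif2c and Plk1, against 3.25% of genes) and 16 in 3T3-L1 (8.77%). After rescaling by the median of ratios these counts were 1 and 8. Shares of all genes after rescaling were not worked out. At 4h the count was 2 in the brown line (Anln and Ect2; 3.8% of genes; 1 after rescaling) and 31 in 3T3-L1 (all but Cdk1; 12.6%). At 1h 0 members were 2-fold lower in the brown line (0.315% of genes) or 3T3-L1 (0.705%). None was 2-fold above 0h at 1h, 2h or 4h, where 0.982%, 2.5% and 3.33% of genes were in the brown line and 1.49%, 3.34% and 4.75% in 3T3-L1. At 4h, 18 members stood above their 2h level in the brown line (59.4% of genes) and 3 in 3T3-L1 (50.3% of genes); these 3, Aurka, Kif2c and Espl1, did so in both lines (41.5% of genes). Mki67 had the lowest 4h level relative to 0h in 3T3-L1, a ratio of 0.191, and Ect2, the exchange factor that starts the cleavage furrow, the lowest in the brown line, 0.481.

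Taking the 2 lines as replicates of a time, limma called few of these differences. At 1h and 2h 0 members passed, with 0 and 2 at an unadjusted p under 0.05. Of all genes 0.0402% rose and 0% fell at 1h, and 0.507% rose and 0.909% fell at 2h. At 4h Anln alone fell, by 1.34 ± 0.21 (log2 ± SE, limma adjusted p = 0.0247), against 1.46% of genes, and 0 members rose, against 0.933%. That call ended without any 1 of the 8 libraries of 0h to 4h, when low genes were kept in the fit and when the line term was dropped. In the 0h to 4h libraries alone, where the late libraries add nothing to the residual, 12 members fell at 2h (15.8% of genes) and 26 at 4h (22% of genes). Without the day 7 library of either line 4 members fell at 2h and 11 at 4h, and shares of all genes were not worked out for these fits. Whether the 4h level differed from 0h by more in 3T3-L1 than in the brown line was not tested.

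**Figure D4:**
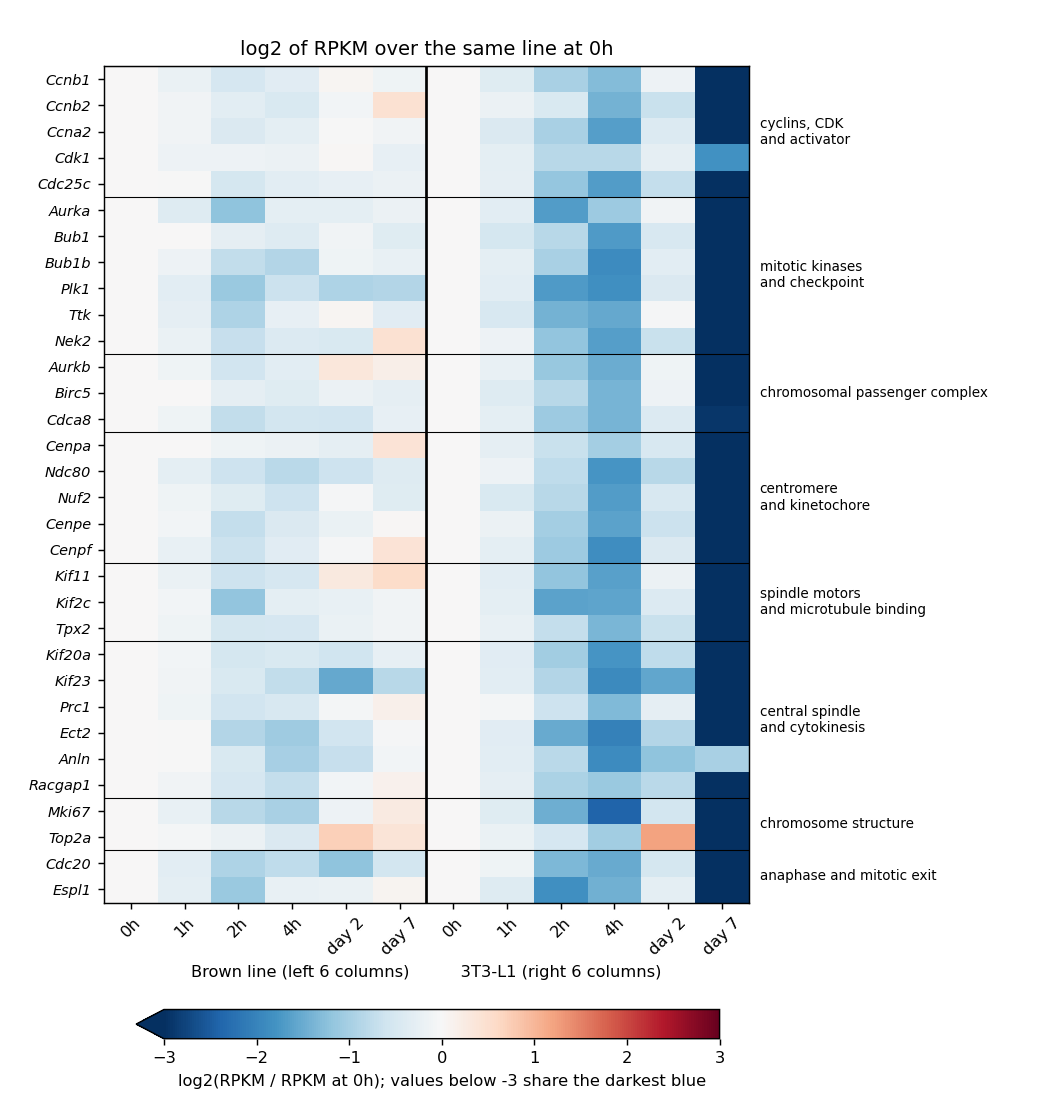
log2 of RPKM over the same line at 0h for the 32 genes, grouped by role, in the brown line (left 6 columns) and 3T3-L1 (right 6 columns), 1 library each; blue is below 0h, red above. The 3T3-L1 day 7 column is dark blue except for Cdk1 and Anln, and the day 2 column shows Top2a above 0h in both lines.

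At day 2 the members stood nearer to their 0h level. In the brown line 24 were higher at day 2 than at 4h (51.8% of genes), with a median ratio of 1.21 against 1.02 over all genes. In 3T3-L1 all 32 were (59.4% of genes), with a median ratio of 2.14 against 1.12 over all genes. Relative to 0h the median ratio was 0.878 in the brown line and 0.730 in 3T3-L1, against 0.985 and 0.930 over all genes. Kif23 and Cdc20 were 2-fold lower than at 0h in the brown line (13.6% of genes) and Kif23 and Anln in 3T3-L1 (13.9% of genes). Top2a was the exception in the other direction, at 2.31 times its 0h level in 3T3-L1 (7.51% of genes higher by 2-fold) and 1.64 times in the brown line, where 9.96% of genes and 0 members were 2-fold higher. In limma Anln fell at day 2 by 0.90 ± 0.21 (adjusted p = 0.0244; 11.5% of genes fell) and 0 members rose (6.18% of genes). The call for Anln ended without the 0h or day 2 library of 3T3-L1 and without the day 2 library of the brown line. Without the day 7 library of either line 4 members fell and 1 rose, with shares of all genes not worked out.

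By day 7 the lines had parted. In the brown line the median member stood at 0.930 of its 0h level, next to 0.928 over all genes, 12 of 32 were above 0h (45% of genes), and 0 of 32 were 2-fold lower (19.5% of genes) or 2-fold higher (16.6% of genes). The summed level of the 32 genes was 1098 RPKM at day 7 and 1098 RPKM at 0h. In 3T3-L1 the median member stood at 0.0611 of its 0h level, against 0.804 over all genes, 31 of 32 were 2-fold lower (23.5% of genes) and 0 higher (13% of genes), and the sum was 43.5 RPKM at day 7 against 488 RPKM at 0h. Day 7 was the lowest of the 6 times in 3T3-L1 for 31 members (34.5% of genes). The exception to both was Anln, at 0.511 of its 0h level, with 10.1 RPKM at day 7 against 8.60 RPKM at day 2. The 3T3-L1 day 7 values rested on 18 reads (Cdc25c) to 521 reads (Mki67) per gene, with 2758 reads for Anln, whose 95% Poisson interval was 9.77 to 10.5 RPKM and covers counting error only. These read numbers are above the floor of 3 reads for every member. Kif23 had the lowest ratio to 0h in 3T3-L1, 0.0213, and Cdk1 the second highest after Anln, 0.284.

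In the planned test, which set day 2 and day 7 together against 0h to 4h, the line difference changed for 0 of 32 members in limma (2 at an unadjusted p under 0.05, 0 in edgeR on recovered reads), against 8.55% of genes with a larger and 8.24% with a smaller difference. Without the day 2 library of either line that contrast rests on the day 7 pair alone, since the other day 2 library is taken up by its time term. It then sets day 7 against 0h to 4h, measures no spread at day 7 and is no separate result from the next test. A test of day 7 alone against the other 5 times, chosen after the data were seen, gave a larger difference for 28 of 32 members and a smaller one for 0, against 3.07% and 2.44% of genes. It tests the pattern that prompted it. With 1 day 7 library a line, its SE and p come from the spread of the line difference over the other 5 times alone. They measure no spread at day 7. Its median was 2.42 on the log2 scale, against 0.06 for all genes. Ccnb2 had the largest change, 3.53 ± 0.34 (limma adjusted p = 0.00849), followed by Mki67 with 3.48 ± 0.43 and Top2a with 3.40 ± 0.35. Cdk1 (1.01 ± 0.27, limma adjusted p = 0.0821), Plk1 (2.10 ± 0.51, 0.0664), Ttk (1.37 ± 0.35, 0.0730) and Anln (0.48 ± 0.27, 0.317) did not pass. With 1 library of 0h, 1h or 2h left out the count of members passing was 7 to 17, and it was 30 or 31 without a 4h or day 2 library. Each line has 1 library at day 7, so a change peculiar to that library and one of the line cannot be told apart. At day 7 summed adipocyte markers were 5066 RPKM in the brown line and 14967 RPKM in 3T3-L1, and fibroblast markers 564.3 and 725.4 RPKM. Single markers went the other way and were higher in the brown line. They were Cebpa (250 and 147 RPKM) of the adipocyte markers, and Col1a1 (380 and 191 RPKM) and Cd34 (0.84 and 0.02 RPKM) of the fibroblast markers. The part of these markers in the result was not tested.

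Over both lines together, limma called a fall from 0h to day 7 for 5 members: Kif23 by 2.09, Plk1 by 1.99, Bub1 by 1.64, Nuf2 by 1.43 and Cdk1 by 0.89 on the log2 scale, against 25.8% of genes, and 0 rose (14.9% of genes). This share is below the background. Without the brown day 7 library, which leaves 3T3-L1 as the lone day 7 sample and assumes that it varies like the other times, 32 of 32 fell (27.2% of genes). Without the 0h library of either line 0 members passed, without the 3T3-L1 day 7 library 1 passed, and without any other single library 2 passed.

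Across the 12 culture libraries each member followed the mean of the others, with a median Pearson r of 0.985 on log2(RPKM + 1) and a range from 0.831 (Anln) to 0.996 (Cenpe). These points share 12 libraries and 2 lines that differ in level, so r describes the line gap and day 7 above all. Within the 6 3T3-L1 libraries the median r was 0.990, with Anln lowest at 0.462. Within the 6 brown libraries, where levels moved little, the median r was 0.770, and Kif23 (0.156) and Cdk1 (0.249) were lowest.

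Other cell cycle genes were set beside the members by lists, which were also chosen with earlier results of these data known. Of 75 further mitosis genes 70 were higher in the brown line in limma and 0 lower (31.3% and 18.6% of all genes), with a median difference of 1.51 on the log2 scale; Cenpm (2.34 ± 0.29), Spc24 (2.26 ± 0.17), Iqgap3 (2.23 ± 0.25) and Melk (2.20 ± 0.22) had the largest differences. Of 40 DNA replication genes 39 were higher and 0 lower, with a median of 1.47, led by the primase gene Prim1 (2.24 ± 0.21) and the thymidine kinase gene Tk1 (2.23 ± 0.35). Their median ratios between the lines at day 7 were 18.7 for the further mitosis genes and 7.91 for the replication genes, against 36.6 for the members. In the day 7 test 49 of the 75 and 19 of the 40 passed with a larger difference, and 0 with a smaller one, against 3.07% and 2.44% of all genes.

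The APC/C marks mitotic proteins for destruction. Of 15 of its subunits and cofactors 8 were higher in the brown line and 1 lower, beside 31.3% and 18.6% of all genes, with a median difference of 0.33 against 0.08 over all genes. Fbxo5, the APC/C inhibitor Emi1, led with 1.76 ± 0.29, and the subunit gene Anapc5 followed with 0.83 ± 0.08. Of 22 regulators of mitotic transcription 15 were higher and 1 lower, with a median of 0.83. Foxm1, the forkhead factor that activates G2 and M phase genes, stood at 50.7, 46.3, 36.3, 32.2, 34.5 and 36.2 RPKM in the brown line and at 25.2, 21.8, 12.9, 8.46, 13.8 and 2.05 RPKM in 3T3-L1. The repressors E2f7 and E2f8 differed by 2.05 ± 0.22 and 1.74 ± 0.24, and Lin9, a subunit of the MuvB core shared by DREAM and the activating complex, by 1.67 ± 0.13. In the day 7 test 0 of the 15 and 3 of the 22 passed with a larger difference, beside 3.07% of all genes.

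Of 14 G1 cyclins, their kinases and CDK inhibitors 4 were higher in the brown line and 1 lower, shares near or below the 31.3% and 18.6% of all genes, with a median difference of -0.10. Cdkn1c, an inhibitor of cyclin-dependent kinases, was among those higher: it lay between 17.4 and 36.6 RPKM in the brown line and between 0 and 0.240 RPKM in 3T3-L1. Ccne2, a cyclin E, and Cdk2 were higher by 1.8001 ± 0.17 and 1.44 ± 0.16. Cdk6 was lower by a difference of -1.06 ± 0.29 (limma adjusted p = 0.0178).

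In brown fat itself the mitosis genes were low in the adult and detected throughout in the embryo. Of the 29 members with at least 2 RPKM in either tissue, all 29 were 2-fold or more lower in adult tissue, against 34% of genes, and 0 higher, against 6.11%, with 1 library each and no test. Bub1, Cdc25c and Ttk were under 2 RPKM in both and were not counted. The median member stood at 0.0947 RPKM in adult and 5.24 RPKM in embryonic tissue. In the adult library 7 members had 0 reads, 15 had 1 to 3 and 10 had more, so most adult values lie near the limit that depth allows; 3 reads on a transcript of 2 kb would be 0.280 RPKM. The summed counts were 149 in adult and 13120 in embryonic tissue, a 25.1-fold higher level in the embryo at the depths implied by the deposited RPKM values, 5.35 M and 18.8 M reads.

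Mki67 had 5 reads (0.0928 RPKM) in adult and 2683 reads (14.2 RPKM) in embryonic tissue, a 153-fold higher level in the embryo with a 95% interval of 65.4 to 471 from counting error. Top2a had 5 reads (0.179 RPKM) and 1357 reads (13.9 RPKM) in adult and embryonic tissue. Cdk1 had 0 reads in adult and 400 reads (7.45 RPKM) in embryonic tissue. With the adult set to a floor of 3 reads the embryo stood 38.0-fold higher. For the 0 reads counted, the lower end of the 95% interval from counting error was 30.8-fold. That bound does not belong to the floor of 3 reads. Cenpa, Kif20a and Ccna2 were the 3 members over 1 RPKM in the adult, at 5.17, 1.45 and 1.13 RPKM against 15.5, 7.00 and 16.4 RPKM in the embryo. Cenpa showed the smallest gap, with the embryo 3.00-fold higher (95% interval 2.14 to 4.32). Beside this, erythroid markers summed to 124 RPKM in adult and 1633 RPKM in embryonic tissue, fibroblast markers to 54.3 and 618 RPKM, endothelial markers to 136 and 281 RPKM, leukocyte markers to 26.9 and 37.1 RPKM and skeletal muscle markers to 1054 and 436 RPKM. The leukocyte marker Cd3e was at 0 in the adult. The part of these cells in the result was not tested. Brown adipocyte markers were present in both tissues (6 of 6), with Ucp1 at 1015 RPKM in adult and 1194 RPKM in embryonic tissue.

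**Figure D5:**
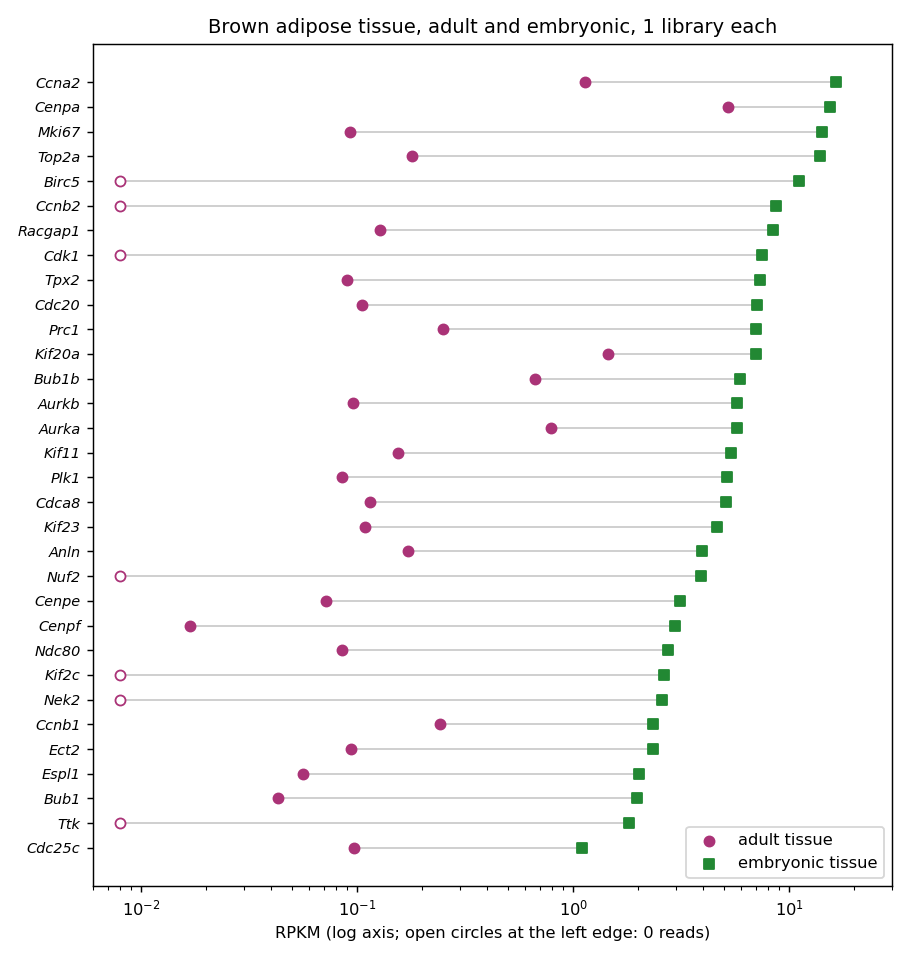
RPKM (log axis) of the 32 genes in adult (circles) and embryonic (squares) brown adipose tissue, 1 library each, ordered by the embryonic level; open circles at the left edge are genes with 0 reads in the adult. Each square lies to the right of its circle, and Cenpa, Kif20a and Ccna2 are the only circles past 1 RPKM.

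Set beside the cultures, whose files were normalized separately from the tissue files, embryonic tissue lay between the lines at day 7. The median member in embryonic tissue stood at 0.176 of the brown day 7 level, against 0.803 over all genes. All 32 were below that level, and the share of all genes below it was not worked out. Over the 29 members with 2 RPKM in either, the median was 6.18 times the 3T3-L1 day 7 level, against 0.937 over all genes. Anln was again the exception, at 0.389 of its 3T3-L1 day 7 level in embryonic tissue.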

How the data were processed

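Messenger RNA was purified on Dynabeads from Trizol-extracted RNA and sequenced from Illumina libraries, per the labels' protocols. The authors deposited RPKM values for each culture library, rounded to 2 decimals, and read counts with RPKM values for each tissue library, per the file headers. The submitters' processing notes name CASAVA 1.8.2 and mm9 without saying what each was used for. Aligner, counting program and strand setting: not given in the sources used here. Overlapping and antisense genes therefore cannot be told apart.

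Groups came from the sample titles. For each symbol the transcript with the highest mean RPKM over the 14 libraries was kept, out of 29082 transcripts. Of 49 symbols changed into numbers or dates, 48 were restored from RefSeq accessions. Tissue counts over RPKM gave transcript lengths. The depth of each culture library was the value that brought its low values nearest to whole reads. At that depth 100% of them lay within 0.2 of a whole read, which is no separate check.

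Tests used limma 3.58.1 (trended eBayes, R 4.3.3) on log2(RPKM + 1), which understates folds of low genes, over genes of at least 1 RPKM in at least 2 of 12 culture libraries, with Benjamini-Hochberg adjustment over all of them and a threshold of 0.05. The fits of the line difference and of its late change were also run on simulated data with independent noise. The day 7 fit was not, and the outcome is not reported here. Models held time and line, plus line by late time or line by day 7. The 2-fold rule needed 2 RPKM in the higher library. In tissue, a count of 0 was set to 3 reads for the ratio. Intervals there are exact 95% Poisson intervals of the deposited counts, 0 included, and cover counting error only. The libraries of a line may be separate cultures or not, so p-values measure only the spread between these samples. Alternatives were a pseudocount of 0.1, no filter, rescaling, the mean over transcripts, edgeR 4.0.16 on recovered reads, other folds, left-out libraries, early or late libraries alone and dropped terms. All members were named, and of each further list up to 4 genes with the largest line difference past the threshold. The members and lists were chosen with earlier results of these data known.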

Additional observations from a re-analysis of the deposited data

Results flagged for a closer look

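For 28 mitosis genes the difference between the brown line and 3T3-L1 was larger at day 7 than at the other 5 times, by a limma test of the change itself that was chosen after the data were seen. With 1 day 7 library a line, its p-values rest on the spread among the other times and measure none at day 7, and 7 to 17 members passed with 1 library of 0h, 1h or 2h left out. The values are log2(RPKM + 1) differences, brown minus 3T3-L1, at day 7 minus the same at the other times. Among the cyclins the change was 3.53 for Ccnb2, 2.94 for Ccna2 and 2.22 for Ccnb1, and it was 1.66 for Cdc25c. Among kinases and checkpoint genes it was 3.15 for Bub1b, 2.83 for Nek2, 2.64 for Aurka and 2.13 for Bub1. In the chromosomal passenger complex it was 2.55 for Birc5, 2.37 for Aurkb and 1.92 for Cdca8. At the centromere and kinetochore it was 2.84 for Cenpa, 2.72 for Cenpf, 2.36 for Cenpe, 1.85 for Nuf2 and 1.801 for Ndc80. Spindle genes gave 3.05 for Kif11, 2.82 for Tpx2 and 2.30 for Kif2c. Midzone and cytokinesis genes gave 3.07 for Racgap1, 2.61 for Kif20a, 2.47 for Prc1, 2.32 for Kif23 and 2.15 for Ect2. The remaining values were 3.48 for Mki67, 3.40 for Top2a, 2.90 for Cdc20 and 2.23 for Espl1. All 28 rest on the same pair of day 7 libraries.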

How the results depend on the processing

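The line difference was positive for all 32 members under each alternative run, and 30 to 32 were higher with 1 library left out, while all genes higher numbered 3089 to 4096 and lower 1686 to 2590. With day 2 and day 7 alone 0 members passed, and 0 genes higher and 0 lower; with no time term 2143 genes were higher and 992 lower. With 1 library left out, the late test called 0 to 31 members and the day 7 test 7 to 31; the day 7 test cannot be run without a day 7 library. Members that fell numbered 0 to 4 at 2h, 0 to 11 at 4h, 0 to 4 at day 2 (0 to 1 rose) and 0 to 32 at day 7. In the 0h to 4h libraries alone 12 fell at 2h and 26 at 4h. At 4h 0 fell with no filter or no line term, and at day 2 0 with no line term. At day 7 3 fell with a pseudocount of 0.1, 2 after rescaling by the median of ratios or quantiles, and 0 with no filter, no line term or edgeR. At 3-fold the members higher in the brown line numbered 0 at 0h, 9 at 1h and 12 at day 2. Against 0h in the brown line, 15, 10, 6 and 2 were lower at 1.5-fold at 2h, 4h, day 2 and day 7, with 1 higher at day 2, and 0, 0 and 0 at 3-fold at 2h, 4h and day 2; rescaling left 1 at 2h and 1 at 4h. In 3T3-L1, 30 were lower at 1.5-fold, 4 at 3-fold and 8 after rescaling at 2h, 16 at 3-fold at 4h, and 11 at 1.5-fold and 0 at 3-fold at day 2, where 0 were higher at 3-fold. The cause of these changes was not tested. The fold counts and left-out counts of members here stand without shares of all genes and cannot be read against a background. Rescaling by the median of ratios moved the median of all genes from -0.17 to 0.02 at 2h, from -0.13 to -0.01 at 4h and from -0.19 to -0.04 at day 7, where calls over all genes split 1849 higher and 3202 lower before it and 2362 and 2453 after it. The splits were 63 and 113 before and 74 and 32 after at 2h, 116 and 181 and then 159 and 122 at 4h, and 381 and 303 and then 407 and 500 for the day 7 test. At day 2, quantile scaling turned 768 and 1426 into 1183 and 1260. Each group holds 1 library, so the shared replicate number 1 pairs nothing. The term for time pairs the lines within each time. Depth limits the adult tissue, where 22 members had 3 reads or fewer.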
